A study of Mus musculus with 12 samples.

Results

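The 7 genes described here make or control MHC class II presentation, and they were taken by name (Cd74, H2-Aa, H2-Ab1, H2-Eb1, H2-DMa, H2-DMb1 and Ciita) from the 22630 genes listed for each tumor. All 7 had a row of their own and passed the filter on low counts in the test across genes. RNA was sequenced from 12 whole subcutaneous tumors, 4 in each of 3 groups, grown from KCip53-1, a single mouse pancreatic cancer line. The line came from an animal that carried Ptf1a-Cre, TREp53R270H and R26rtTa/rtTa, in which Cre acts in the pancreatic epithelium and doxycycline (dox) switches on mutant p53R270H together with dsRed, the reporter on which the cells were sorted. All 3 groups share this line, with every allele it carries, and the host strain, NSG mice aged 8 to 10 weeks that received 500000 cells per tumor and lack mature T, B and NK cells. No-dox mice had 0 days of dox, plus-dox mice drank 0.2 g/l dox in 5% sucrose water for 36 days, and off-dox mice received the same water for 33 days, followed by 3 days free of dox. This off-dox schedule is that of the sample labels, whereas the study's text has dox withdrawn once tumors could be felt, so the time without dox is uncertain. The comparisons ask whether class II RNA differs between tumors of mice given dox, never given it, or taken off it again. According to the paper, the sorted cells were kept in culture with dox, so no-dox refers to the host mice only. Sucrose water is recorded only for mice given dox, and no group had dox without the transgene. Dox, sucrose and mutant p53 therefore cannot be told apart in the comparisons with no-dox.

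MHC class II molecules are pairs of an alpha and a beta chain that carry peptides from the endosome to the cell surface, where CD4 T cells read them. The invariant chain holds the pair and steers it to the endosome, a second class II-like pair called DM exchanges the remnant of that chain for peptide, and the transactivator CIITA is needed for transcription of the whole set. Macrophages, dendritic cells and B cells carry class II at rest, and many other cells, tumor epithelium included, can be made to carry it by interferon-gamma.

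The libraries held 19845923 to 33137609 counted reads. The share of mapped reads that fell on genes was 88.4% to 89.4% in no-dox, 82.2% to 87.1% in plus-dox and 81.1% to 85.8% in off-dox tumors, so that every no-dox tumor lay above the other 8. The mapped reads of a library were inferred here from its deposited counts, RPKM values and exonic lengths. RNA counted on Trp53 does not separate the transgene from the endogenous gene. It was 40.1 to 57.4 RPKM in no-dox, 40.4 to 56.0 in plus-dox and 41.6 to 45.4 in off-dox tumors. The paper reports that the KCip53 lines it examined had lost the wild-type Trp53 sequence. The plus-dox and off-dox ranges lay within that of no-dox, so Trp53 RNA showed no induction of the transgene and could not check the labels. Each mouse carried 2 tumors, and the sources used here do not pair tumors with mice. The p-values treat the 12 tumors as independent, and they are too small where 1 mouse gave 2 tumors of its group.

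Of the 7 genes, 5 lie within the H2 complex on chromosome 17 in mm9. Their start sites share a promoter pattern, shown here because all 5 are read together below. The windows of 63 bases are upstream of the start site, read 5′ to 3′ on the strand of the gene from the mm9 genome, which is the build of the deposited files. Capitals mark GATTGG, the core of the Y box bound by NF-Y, and, where it is present, AGNNACNGATG, in the place of the X box bound by RFX. These X box letters are those shared by H2-Ab1, H2-Eb1, H2-DMa and H2-DMb1, with N where the 4 differ, and were chosen after the sequences were seen.
H2-Ab1: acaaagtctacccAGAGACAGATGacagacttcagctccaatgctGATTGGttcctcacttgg
H2-Aa: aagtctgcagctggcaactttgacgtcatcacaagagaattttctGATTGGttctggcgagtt
H2-Eb1: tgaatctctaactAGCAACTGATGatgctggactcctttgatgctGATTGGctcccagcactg
H2-DMa: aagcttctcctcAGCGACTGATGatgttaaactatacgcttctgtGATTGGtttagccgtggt
H2-DMb1: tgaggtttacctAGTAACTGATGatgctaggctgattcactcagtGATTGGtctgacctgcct
The windows are chr17:34400081-34400143 (H2-Ab1, plus strand), chr17:34424800-34424862 (H2-Aa, minus strand), chr17:34442707-34442769 (H2-Eb1, plus strand), chr17:34272446-34272508 (H2-DMa, plus strand) and chr17:34290029-34290091 (H2-DMb1, plus strand).

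The Y box core was present in the 250 bases upstream of these 5 genes, ending between 40 bases (H2-Ab1) and 119 bases (H2-DMa) before the start site. The X box letters, by the way they were chosen, preceded it in 4 of the 5, with 32 bases from start to start in H2-Ab1 and H2-Eb1 and 33 in H2-DMa and H2-DMb1. H2-Aa held the Y box core without an exact match to the X box letters. Neither motif was found in the 250-base windows of Cd74 and Ciita, which says only that these letters are not there. Searched on both strands, GATTGG was present in 16.5% of 22627 upstream windows of the same length and AGNNACNGATG in 0.747%. Both, in this order on 1 strand with at most 60 bases from start to start, were found in 7 windows (0.0309%), those of H2-Ab1, H2-Eb1, H2-DMa, H2-DMb1, the class II beta chain gene H2-Eb2, Hnrnpa1 and Abpd.

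The alpha and beta chains and the invariant chain were among the abundant RNAs of these tumors. Levels are given as RPKM, the authors' reads per kilobase of exonic length scaled to the mapped reads of the library, and the values of a group follow tumors 1 to 4. Because the tumors were not sorted, fewer class II cells and less class II RNA per cell cannot be told apart in any of these values.

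Cd74 (chromosome 18, 60963503 to 60972306), which encodes the invariant chain, had the highest level of the 7 in every tumor. It was measured at 457, 549, 201 and 445 RPKM in no-dox, 410, 227, 175 and 339 in plus-dox and 577, 242, 346 and 211 in off-dox tumors. The highest and the lowest tumor differed 3.30-fold, and the group ranges overlapped throughout. Group means were 413 ± 149, 288 ± 106 and 344 ± 166 RPKM (SD, n = 4 each) for no-dox, plus-dox and off-dox tumors.

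H2-Aa (chromosome 17, 34419696 to 34424716, minus strand) encodes the alpha chain of I-A, a class II molecule of the mouse. Its levels were 312, 321, 159 and 257 RPKM in no-dox, 254, 154, 98.1 and 227 in plus-dox and 351, 145, 218 and 156 in off-dox tumors. The tumor with the highest level was off-dox tumor 1 and the lowest plus-dox tumor 3, as for Cd74. The spread within a group was wide, with means of 262 ± 74.5, 183 ± 70.7 and 218 ± 94.7 RPKM (SD, n = 4 each) for no-dox, plus-dox and off-dox.

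H2-Ab1 (chromosome 17, 34400172 to 34406363), the beta chain gene of I-A, ran from 69.1 to 246 RPKM. The tumors followed in nearly the same order, with 231, 241, 111 and 180 RPKM in no-dox, 181, 111, 69.1 and 164 in plus-dox and 246, 92.9, 139 and 105 in off-dox. No pair of groups was separated.

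H2-Eb1 (chromosome 17, 34442812 to 34453619), the beta chain gene of I-E, was at 156, 163, 67.7 and 122 RPKM in no-dox, 126, 73.6, 47.8 and 111 in plus-dox and 170, 67.6, 103 and 66.8 in off-dox tumors. Again the same 3 tumors, off-dox tumor 1 and no-dox tumors 2 and 1, were the highest. Its alpha chain partner is listed as a pseudogene, H2-Ea-ps (chromosome 17, 34479157 to 34481590), as in mouse strains that cannot make I-E. That gene had 0 counts in all 12 tumors, against 2728 to 8846 counts for H2-Eb1, and 3 counts per tumor, the limit that a count of 0 allows, would be 0.103 to 0.161 RPKM.

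The DM pair was lower, with H2-DMa 2.86- to 4.79-fold under H2-Eb1 in the same tumor. H2-DMa (chromosome 17, 34272616 to 34275480) was at 33.1, 35.9, 22.0 and 29.1 RPKM in no-dox, 28.9, 25.8, 15.8 and 25.6 in plus-dox and 35.5, 18.7, 29.1 and 22.0 in off-dox tumors. It varied least of the 7 genes, 2.27-fold from the lowest to the highest tumor. H2-DMb1 (chromosome 17, 34290136 to 34297174) was at 24.1, 23.1, 14.5 and 21.3 RPKM in no-dox, 19.8, 10.2, 9.23 and 16.3 in plus-dox and 21.8, 11.5, 13.5 and 9.63 in off-dox tumors. Of the 4 no-dox tumors, 3 lay above 7 of the 8 others, and off-dox tumor 1 fell among them. H2-DMb1 has a close paralog next to it, H2-DMb2, at 5.40 to 14.0 RPKM, and how the authors counted reads that map to both is not stated, so the split between these 2 genes is uncertain.

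Ciita (chromosome 16, 10480165 to 10527657) was the least abundant, at 2.80, 3.13, 1.29 and 2.48 RPKM in no-dox, 2.77, 2.14, 1.38 and 3.17 in plus-dox and 3.63, 1.94, 2.53 and 2.32 in off-dox tumors, from 212 to 541 counts. Its lowest tumor was no-dox tumor 3, whereas the other 6 genes were lowest in plus-dox tumor 3.

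**Figure D1:**
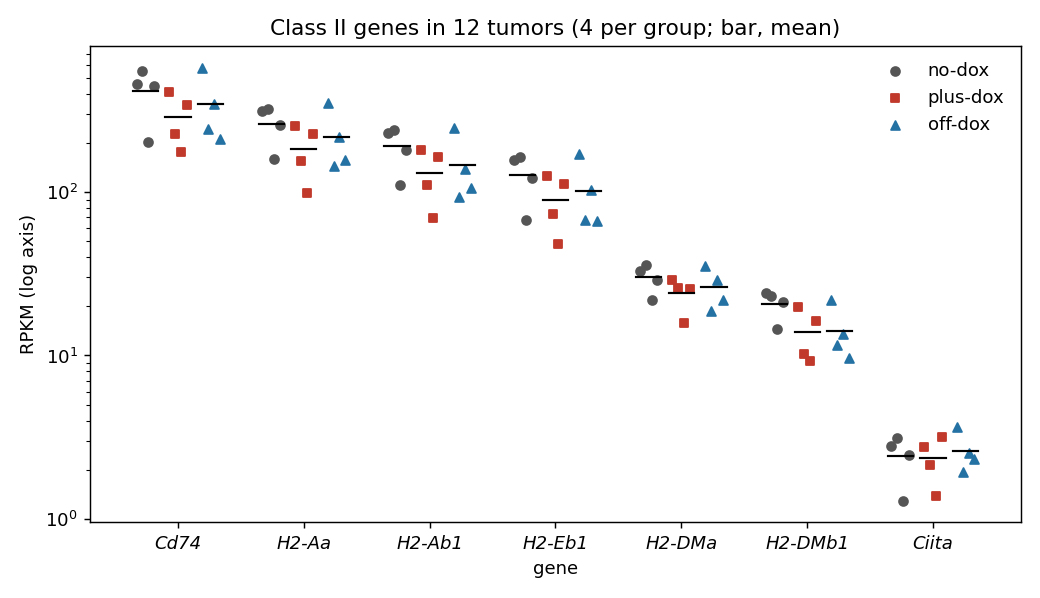
RPKM (log axis) of the 7 class II genes in each of the 12 tumors, by group, with points in the order of tumors 1 to 4 and bars at the mean of 4 tumors. The order Cd74, H2-Aa, H2-Ab1, H2-Eb1, H2-DMa, H2-DMb1, Ciita held in 12 of 12 tumors, and within each gene the 3 groups overlapped.

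The order of the 7 levels was the same in all 12 tumors, so each neighbour in the order differed in 1 direction throughout. The smallest gap between neighbours, in any tumor, was 1.27-fold, for Cd74 over H2-Aa. Levels of different H2 genes are read on the mm9 reference, and how allele differences between this reference, the tumor line and the NSG hosts bear on mapping was not tested.

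The remaining class II genes were under 1 RPKM, apart from H2-DMb2. H2-Oa and H2-Ob, which encode DO, an inhibitor of DM found mainly in B cells, were at 0.262 to 0.858 and 0.122 to 0.699 RPKM, from at most 27 and 45 counts. H2-Eb2 was at 0.0483 to 0.215 RPKM from at most 18 counts. None of the 4 tested passed the test in any pair of groups, although H2-Oa in off-dox against plus-dox had an unadjusted p of 0.046 (log2 fold change 0.87, SE 0.39, adjusted p = 1 with edgeR).

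No class II gene differed between groups by more than the spread between tumors allowed the test to call. In edgeR's quasi-likelihood test, which adjusts p over the 17561 genes tested (Benjamini-Hochberg) and calls a gene at an adjusted p under 0.1 with a change over 1.5-fold, 0 of the 7 genes were called in plus-dox against no-dox, off-dox against no-dox and off-dox against plus-dox, where 0%, 1.34% and 0% of all genes were called. The test of any difference among the 3 groups likewise called 0 of 7 and 0% of all genes. None of the 7 had an unadjusted p under 0.05 in any of these tests. DESeq2 also called 0 of 7 in each, where it called 0.729%, 3.5% and 0.0342% of all genes in the 3 pairs and 6.29% among the 3 groups. The groups did not separate for any of the 7, whereas 8.86%, 11.5% and 1.4% of all genes tested had log2 CPM (log2 of counts scaled to library size) that did not overlap in these 3 pairs.

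Plus-dox tumors had lower estimates than no-dox tumors for all 7 genes, with intervals that include 0. The log2 fold change was -0.52 for Cd74 (95% interval -1.30 to 0.26), -0.51 for H2-Aa (-1.22 to 0.19), -0.54 for H2-Ab1 (-1.28 to 0.21) and -0.50 for H2-Eb1 (-1.27 to 0.27). It was -0.31 for H2-DMa (-0.78 to 0.16) and -0.03 for Ciita (-0.66 to 0.59). H2-DMb1 came closest to the threshold, at -0.58 (-1.18 to 0.01, edgeR unadjusted p = 0.054, adjusted p = 0.37). The median over the 7 was -0.51, beside 0.01 over all genes tested. For the 4 chain genes, Cd74 included, the intervals run from a log2 fold change under -1 to one over 0.

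Off-dox tumors lay between the other groups for 6 of the 7 genes. Against no-dox, the log2 fold change was -0.23 for Cd74 (-1.01 to 0.55), -0.24 for H2-Aa (-0.94 to 0.47), -0.36 for H2-Ab1 (-1.10 to 0.39), -0.29 for H2-Eb1 (-1.06 to 0.49), -0.16 for H2-DMa (-0.62 to 0.31), -0.53 for H2-DMb1 (-1.12 to 0.06, edgeR adjusted p = 0.29) and 0.14 for Ciita (-0.48 to 0.76). Against plus-dox, all 7 estimates were positive, from 0.05 for H2-DMb1 to 0.28 for Cd74, each with an adjusted p of 1 in edgeR. The 3 pairs share tumors, so their signs are not independent. Leaving out 1 tumor changed a call, since without off-dox tumor 1 H2-DMb1 fell by 0.81 on the log2 scale in off-dox against no-dox, with an edgeR adjusted p of 0.090, in a fit that called 4.51% of all genes. With the percentage of mapped reads on genes as a covariate, chosen after seeing the data, 12 of the 14 log2 fold changes against no-dox changed sign (for Cd74, to 0.05 in plus-dox and 0.57 in off-dox), and this share and the no-dox group cannot be told apart.

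**Figure D2:**
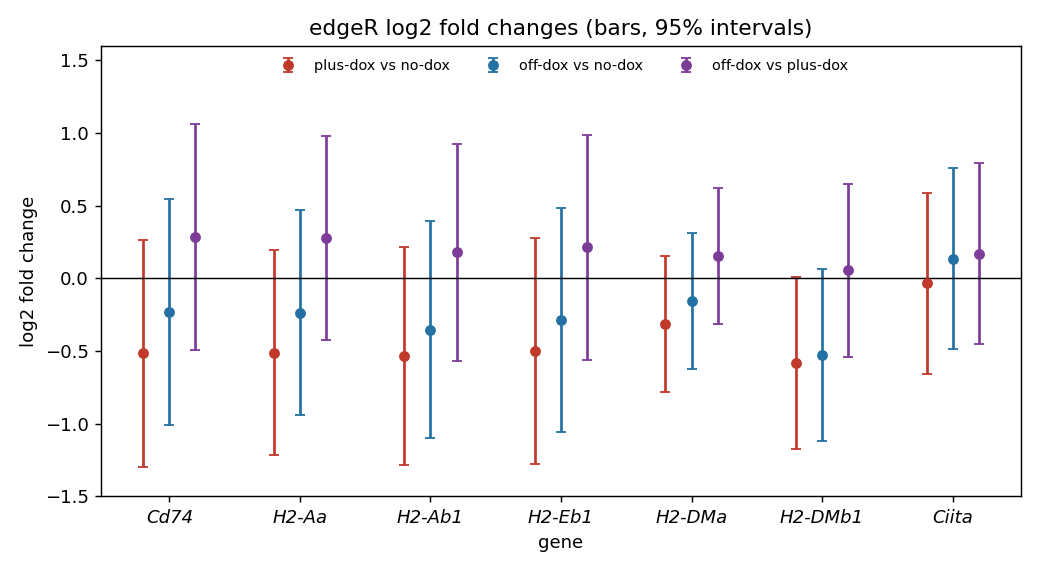
Log2 fold changes of the 7 class II genes from edgeR for plus-dox against no-dox, off-dox against no-dox and off-dox against plus-dox, with 95% intervals. Every interval includes 0, and the widest, such as that of Cd74 in plus-dox against no-dox, ran from -1.30 to 0.26.

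Tumors of the same group differed about as much as tumors of different groups. Their SD over the 12 tumors was 0.33 (H2-DMa) to 0.57 (H2-Eb1) on the log2 CPM scale, beside a median of 0.27 over 14548 genes with a mean RPKM over 0.25. The SD within groups, 0.33 to 0.58, was about as large. Off-dox tumor 1, no-dox tumor 2 and no-dox tumor 1 held the top 3 ranks for Cd74, H2-Aa, H2-Ab1, H2-Eb1, H2-DMa and H2-DMb1, so that the highest tumors came from 2 groups.

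The chains kept close to fixed proportions while their levels changed. The ratio of H2-Aa to H2-Ab1 RPKM, the alpha and beta chains of I-A, ran only from 1.33 to 1.58 over the 12 tumors, although H2-Aa itself varied 3.58-fold and H2-Ab1 3.56-fold. H2-Eb1 to H2-Ab1 ran from 0.612 to 0.744 and Cd74 to H2-Aa from 1.27 to 1.78. On the log2 scale, the SD of the H2-Aa to H2-Ab1 ratio was 0.07, against 0.56 for H2-Aa RPKM alone. The genes of DM were looser, with H2-DMa to H2-Aa at 0.101 to 0.168 and H2-DMb1 to H2-DMa at 0.396 to 0.731.

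Pearson's r of log2 CPM over the 12 tumors was 0.956 to 0.992 for the 6 pairs of Cd74, H2-Aa, H2-Ab1 and H2-Eb1 (Spearman's rho 0.923 to 0.979). For all 21 pairs of the 7 genes r was 0.601 to 0.992 and rho 0.713 to 0.979, with largest permutation p-values, adjusted over the 21, of 0.039 for r and 0.011 for rho. Without the 2 tumors farthest from the median of the gene named first, r was 0.549 to 0.992, and with group means removed it was 0.794 to 0.997. Ciita had r of 0.601 (H2-DMb1) to 0.845 (H2-Eb1) with the other 6 genes, or 0.828 to 0.946 with group means removed. The pairs share the libraries and their normalization.

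Relative to H2-Aa, Ciita was lower in every no-dox tumor than in the other 8. The ratio of Ciita to H2-Aa RPKM was 0.00817 to 0.00977 in no-dox, 0.0109 to 0.0140 in plus-dox and 0.0103 to 0.0149 in off-dox tumors. The mean log2 ratio was higher by 0.53 in plus-dox and by 0.45 in off-dox than in no-dox, each with p = 0.029 in an exact two-sided permutation test of 4 against 4 tumors, which is the smallest p this design allows. Adjusted over the 18 tests of 6 ratios, the p was 0.129, so this difference did not pass, and both comparisons use the same 4 no-dox tumors. Among 14547 genes, 2.93% had a ratio to H2-Aa that separated plus-dox from no-dox, and for 1.1% it separated off-dox from no-dox. The percentage of mapped reads on genes separated the same tumors, and its part in the ratio was not tested.

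A pair of other ratios separated 2 groups. H2-Aa to H2-Ab1 was 1.39 to 1.42 in plus-dox and 1.43 to 1.58 in off-dox tumors, and H2-DMb1 to H2-DMa was 0.645 to 0.731 in no-dox and 0.438 to 0.617 in off-dox tumors. Both had an exact permutation p of 0.029 and an adjusted p of 0.129, beside 0.337% of 14547 genes whose ratio to H2-Aa, and 2.54% whose ratio to H2-DMa, did not overlap in the same groups. None of the 18 tests had an adjusted p under 0.1.

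**Figure D3:**
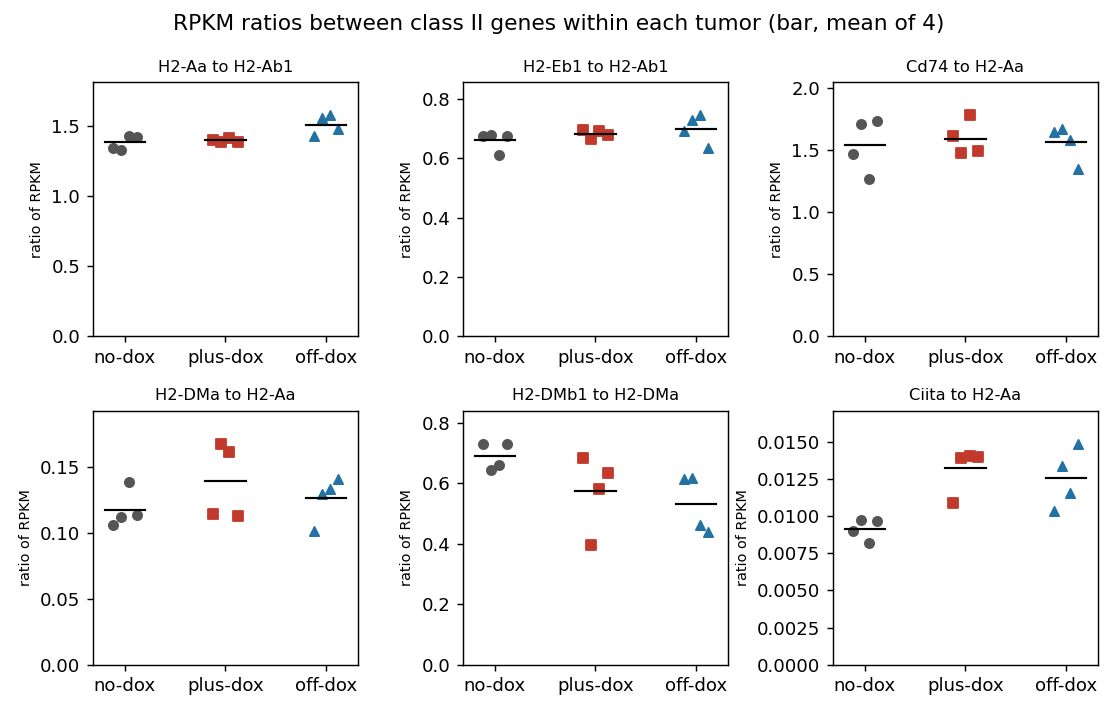
RPKM ratios between class II genes within each tumor, for 6 ratios, by group, with bars at the mean of 4 tumors and axes that start at 0. The ratio of H2-Aa to H2-Ab1 stays between 1.33 and 1.58 in all 12 tumors, and Ciita to H2-Aa is at most 0.00977 in no-dox tumors and at least 0.0103 in the other 8.

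The tumors held abundant macrophage RNA and almost no B cell RNA. The summed level of 17 macrophage marker genes, such as Csf1r, C1qa and Lyz2, was 2392 to 3561 RPKM in no-dox, 2843 to 3410 in plus-dox and 2690 to 4702 in off-dox tumors. Of the 8 B cell markers, Pax5 was at 0 in all 12 tumors, and Ms4a1 reached at most 0.0432 RPKM. The sum of the 8 was 1.22 to 6.70 RPKM, most of it from Blk (up to 5.36) and Cd79b (up to 1.81), beside 416 to 1405 RPKM for the 7 class II genes. The 13 dendritic cell markers summed to 32.9 to 57.6 RPKM, with Itgax at 3.71 to 9.98 and Flt3 at 0.214 to 1.08. The injected cells express the 8 epithelial markers. Their sum was 2280 to 3033 RPKM in no-dox, 1363 to 2003 in plus-dox and 1048 to 2608 in off-dox tumors. The sums of no-dox and plus-dox did not overlap, where 8.86% of single genes did not overlap in log2 CPM. Their mean log2 CPM did overlap, at 7.67 to 8.56 in no-dox and 5.45 to 8.20 in plus-dox tumors. The part of epithelial RNA in the class II estimates was not tested.

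No relation of class II RNA with macrophage RNA across the tumors passed the test. Pearson's r of the 7 genes with the mean log2 CPM of the macrophage markers was -0.388 to -0.0710 and rho -0.469 to -0.245, with permutation p-values, adjusted over 28 relations, of 0.641 to 0.928 for r and 0.396 to 0.560 for rho. This list varied little, by 0.84 on the log2 scale between the lowest and the highest tumor, whereas the epithelial markers varied by 3.11. For the dendritic cell markers r was -0.241 to 0.163 and rho -0.245 to 0.0769 (permutation p adjusted for r 0.850 to 0.945, for rho 0.560 to 0.817). Without the 2 tumors farthest from each median, r was -0.369 to -0.219 for macrophage and -0.454 to -0.0424 for dendritic cell markers.

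Epithelial markers had r of 0.0782 to 0.536 with the 7 genes and rho of 0.287 to 0.476 (permutation p adjusted 0.306 to 0.928 and 0.396 to 0.512). The r values rested on plus-dox tumor 2 and off-dox tumor 4, without which r was 0.0214 to 0.204. For rho, leaving out these tumors was not tested. Measured against macrophage RNA, by subtracting the mean log2 CPM of the macrophage markers, 0 of the 21 differences of a gene between 2 groups had an adjusted p under 0.1 (smallest exact permutation p 0.057, adjusted 0.6, for H2-DMb1, lower by a log2 difference of -0.76 in plus-dox than in no-dox).

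Of the 4 lists compared with the class II genes across tumors, the interferon-gamma response genes had the highest r and rho with all 7, though no relation passed the adjustment. The list holds 17 genes outside the class II set, among them class I, proteasome and GTPase genes induced by interferon-gamma. The 7 genes had r of 0.495 (H2-DMa) to 0.744 (Cd74) and rho of 0.573 to 0.762 with it, with permutation p-values adjusted over the 28 relations of 0.127 to 0.351 for r and 0.106 to 0.222 for rho. Without off-dox tumor 4 and plus-dox tumor 2, r was 0.510 to 0.768, and with group means removed 0.556 to 0.849. RNA for interferon-gamma itself, Ifng, was at 0 in 11 of 12 tumors and at 0.0223 RPKM in the other.

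**Figure D4:**
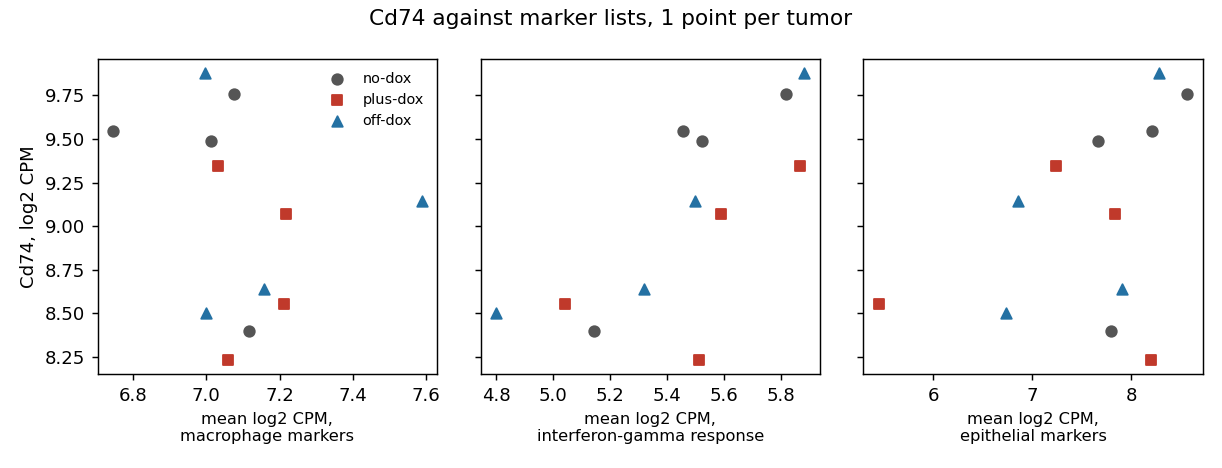
Cd74 (log2 CPM) against the mean log2 CPM of macrophage markers, interferon-gamma response genes and epithelial markers, with 1 point for each of the 12 tumors by group. Pearson's r for Cd74 was -0.235 with the macrophage, 0.744 with the interferon-gamma response and 0.407 with the epithelial markers, and the last was 0.157 without plus-dox tumor 2 and off-dox tumor 4.

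Of 16 regulators of class II transcription tested, 0 were called in each pair. In plus-dox against no-dox, off-dox against no-dox and off-dox against plus-dox, 0%, 1.34% and 0% of all genes were called. At an unadjusted p under 0.05 in edgeR there were 3, 4 and 1 of the 16, beside 2400, 3586 and 537 of 17561 genes. Rfx5, a subunit of the RFX complex that binds the X box, was at 2.94 to 6.08 RPKM over the 12 tumors and Irf1, an interferon-induced activator of Ciita, at 16.2 to 28.7. As a description over 12 tumors, their r with the mean log2 CPM of Cd74, H2-Aa, H2-Ab1 and H2-Eb1 was 0.58 and 0.75 (rho 0.52 and 0.71). Irf8, a factor of macrophage and dendritic cell development, did not rank the tumors this way. It was at 9.98 to 14.4 RPKM in no-dox, 12.9 to 15.9 in plus-dox and 15.9 to 20.1 in off-dox tumors with a log2 fold change of 0.50 in off-dox over no-dox (SE 0.11, edgeR adjusted p = 0.083), under the 1.5-fold that a call needs, while its r with the 4 chains was -0.08 (rho -0.06).

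Genes that process antigen for class II were abundant. Ctss, the protease that trims the invariant chain, was at 207 to 322 RPKM and Ifi30, a thiol reductase of the endosome, at 56.2 to 93.7, with log2 fold changes of -0.06 to 0.15 and 0.02 to 0.05 over the 3 pairs of groups. Of 14 processing and turnover genes 1, Cxcr2, was called, in off-dox against no-dox, where 1.34% of all genes tested were called. This call was lost when a single tumor such as no-dox tumor 1 was left out. Cxcr2 is a chemokine receptor listed for its binding of the Cd74 ligand Mif. It was higher in off-dox than in no-dox (log2 fold change 0.90, SE 0.19, edgeR adjusted p = 0.083). Its level was 1.22 to 1.48 RPKM in no-dox and 1.78 to 3.44 in off-dox tumors. Cxcr2 is a neutrophil marker and was named after its value was seen.

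By r with the mean of Cd74, H2-Aa, H2-Ab1 and H2-Eb1 over the 12 tumors, the 10 most alike of 14541 other genes included Rogdi (0.92), Sucnr1 (0.91), Paqr6 (0.91), Ces2e (0.90), Mgl2 (0.90), Rhbdd3 (0.90), Bex1 (0.90), H2-M2 (0.88) and Fam189a2 (0.87). Among them, Mgl2 encodes a lectin of macrophages and dendritic cells and was at 11.0 to 27.3 RPKM, and H2-M2 encodes a class I-like molecule and was at 0.839 to 9.14 RPKM. Several were low, with means of 0.343 (Ces2e), 0.383 (Paqr6) and 0.684 RPKM (Bex1), and Sucnr1 fell to 0.0971 RPKM in its lowest tumor. The 5 genes most like Ciita were Plxdc2 (0.94), Ppfia4 (0.86), H2-DMb2 (0.85), Tspyl4 (0.83) and Wdr5b (0.83). These are the top of a ranking over many genes and 12 tumors, so their r values are a description only.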

How the data were processed

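Single-end 50-bp reads of 12 whole tumors (4 no-dox, 4 plus-dox, 4 off-dox) were mapped by the authors to mm9. The submitters' processing notes name CASAVA 1.8.2, Bowtie 0.12.8, TopHat 1.4.1 and bedtools 2.16.2. The deposited expected counts are base-wise coverage of unambiguous exonic spans in reads, not normalized, unstranded and partly fractional. The deposited RPKM values are those counts, which the authors divided by exonic length and mapped reads. How reads with several positions were handled is not stated.

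Counts were rounded. Genes with at least 10 counts over the 12 tumors (17561) were fitted with edgeR 4.0.16 (TMM, quasi-likelihood, 3 groups in 1 fit), and the authors' limits were kept for a call (over 1.5-fold at an adjusted p under 0.1, with a gene length over 250 bp and mean RPKM over 0.25). Intervals are 95% intervals of that fit, and log2 CPM used a prior count of 2. Ratios and levels against macrophage RNA were compared by exact permutation over 70 arrangements, and correlations by 100000 permutations. The fit and the tests were tested on simulated data. Alternatives were DESeq2 1.42.0, RLE factors, other count filters, fits of 8 tumors, a replicate block, a stricter threshold, each tumor left out and others given below.

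The members and lists were chosen with earlier results of these data known. Named are the 7 members, the other class II genes, Rfx5, Irf1, Irf8, Ctss, Ifi30, and the 10 and 5 genes most alike, apart from a few items that are not reported here. Of the listed genes, 4 were matched by synonym and 1 was not matched. Upstream windows were read from the mm9 genome (NCBIM37) in place of the RefSeq promoter table, since its build differs from that of the files. The counts limit precision by counting error only in part, as the spread between tumors exceeds it. Python 3.11.15 and R 4.3.3 were used.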

Additional observations from a re-analysis of the deposited data

How the results depend on the processing

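The number of members called was 0 in each of the 3 pairs and in the test of any difference under DESeq2, RLE factors, both other count filters, fits of 8 tumors, an adjusted p under 0.05, the replicate block, and, chosen after seeing the data, the share of mapped reads counted as a covariate and leaving out plus-dox tumor 2 and off-dox tumor 4 together. Leaving out each tumor gave 0 to 1 members in off-dox against no-dox, and 1 only without off-dox tumor 1, in a fit that called 789 of 17501 genes (4.51%). The replicate numbers did not pair the tumors (mean r of deviations -0.088 over 12 pairs with the same number, 2 of them over 0.1, and 2 of 12 tumors correlating best with their own number), and the replicate block took the genes called in off-dox against no-dox from 235 to 0. Genes called there were also 615 by DESeq2 and 122 with no count filter. In plus-dox against no-dox and off-dox against plus-dox, where edgeR called 0 genes (2400 and 537 at an unadjusted p under 0.05), DESeq2 called 128 and 6. The cause was not tested.

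With the covariate, log2 fold changes turned to 0.071 (H2-Aa), 0.11 (H2-Ab1), 0.087 (H2-Eb1), 0.053 (Cd74), 0.093 (H2-DMa) and 0.38 (Ciita) in plus-dox against no-dox, and to 0.60, 0.55, 0.55, 0.57, 0.44 (in that order, without Ciita) and 0.13 (H2-DMb1) in off-dox against no-dox. Against Csf1r alone in place of the macrophage list, off-dox against plus-dox turned to -0.030 (H2-Ab1), -0.047 (H2-DMa) and -0.00149 (Ciita), and Cd74 to H2-Aa turned to 0.0072 there without plus-dox tumor 2 and off-dox tumor 4.

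Leaving out each tumor in turn changed signs of estimates that were not called. For off-dox against plus-dox, the log2 fold change then ran from -0.041 to 0.46 (H2-Aa), -0.18 to 0.36 (H2-Ab1), -0.14 to 0.41 (H2-Eb1), -0.074 to 0.49 (Cd74), -0.013 to 0.29 (H2-DMa), -0.22 to 0.26 (H2-DMb1) and -0.021 to 0.33 (Ciita). Against no-dox, that of Ciita ran from -0.23 to 0.14 in plus-dox and -0.059 to 0.27 in off-dox. Against macrophage RNA, off-dox against plus-dox ran from -0.10 to 0.42 (H2-Aa), -0.24 to 0.31 (H2-Ab1), -0.20 to 0.35 (H2-Eb1), -0.16 to 0.40 (Cd74), -0.13 to 0.23 (H2-DMa), -0.29 to 0.20 (H2-DMb1) and -0.10 to 0.27 (Ciita), and Ciita from -0.47 to 0.024 in plus-dox and -0.33 to 0.11 in off-dox against no-dox. Log2 ratios of Cd74 to H2-Aa ran from -0.041 to 0.11, -0.067 to 0.091 and -0.061 to 0.042 in the 3 pairs, H2-Aa to H2-Ab1 from -0.0032 to 0.032 in plus-dox against no-dox, and Ciita to H2-Aa from -0.17 to 0.0076 in off-dox against plus-dox. With a tumor left out, 4 against 3 tumors cannot go below an exact permutation p of 0.057. Depth was not the main limit for the 7 members, each of which had at least 212 counts in every tumor, but it limits H2-Oa, H2-Ob and H2-Eb2, which had at most 45.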

Other observations

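Among the cell type marker lists, 6 genes were called in off-dox against no-dox, all higher, where 1.34% of all genes tested were called (181 higher and 54 lower), and none was called in the other pairs. They were 1 of 17 macrophage, 2 of 7 neutrophil, 1 of 8 T cell, 1 of 9 innate lymphoid and 1 of 6 skeletal muscle markers tested. The other cell type lists had 0 called. All calls in this pair were lost when a single tumor such as no-dox tumor 1 or off-dox tumor 2 was left out. Mertk, a receptor by which macrophages take up dying cells, was at 3.22 to 4.08 RPKM in no-dox and 4.57 to 6.62 in off-dox tumors (log2 fold change 0.77, SE 0.19, edgeR adjusted p = 0.090) and was the only 1 of 17 macrophage markers called. Csf3r, a neutrophil receptor, was at 3.50 to 4.47 and 4.55 to 9.02 RPKM (0.78, SE 0.17, adjusted p = 0.083). Cd4, the coreceptor that binds class II, was at 1.99 to 3.02 and 3.22 to 5.14 RPKM (0.73, SE 0.19, adjusted p = 0.093). All 8 T cell markers had positive log2 fold changes in this pair, with a median of 0.78, and their summed level was 2.87 to 4.08 RPKM in no-dox and 4.72 to 6.41 in off-dox tumors. Of these 8, 6 had a mean under 0.25 RPKM over the 12 tumors, near the floor. Most of the sum, with a mean of 4.68 RPKM, came from Cd4 at a mean of 3.23. The costimulation list holds genes that act beside class II, such as Cd86 and Cd83, and also the inhibitory ligand genes Cd274 and Pdcd1lg2. It had 0 of 8 called in each pair, with a median log2 fold change of 0.44 in off-dox against no-dox beside 0.0072 over all genes. The highest of the 8 in this pair were Pdcd1lg2 (1.13) and Cd274 (0.83). Klrd1 (0.249 to 1.05 against 0.862 to 3.39 RPKM) and the muscle gene Actn3 (0.323 to 1.28 against 0.666 to 40.4 RPKM) were also called, with overlapping ranges. Skeletal muscle markers summed to 8.11 to 148 RPKM in no-dox and 8.80 to 1044 in off-dox tumors, and their part in the values of these tumors was not tested. The 6 genes called, Cxcr2 included, and also Cd274 and Pdcd1lg2, were named after their values were seen.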
